A study of Mus musculus with 10 samples.

Results

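The 171 ion channel genes described here are the rows of the gene table whose symbols follow the naming of 6 channel families: potassium channels (Kcn), voltage-gated sodium channels (Scn), voltage-gated calcium channels (Cacn), transient receptor potential channels (Trpa, Trpc, Trpm and Trpv), CLC chloride channels and transporters (Clcn), and anoctamins (Ano). They were chosen by symbol alone, and make up 171 of the 55401 genes in the table. RNA was sequenced from the ectoderm of mouse forelimb buds at the embryonic stage E9.75, the epithelial sheet whose distal rim becomes the apical ectodermal ridge. By the labels' genotypes, 3 samples are double knockouts of Sp8 and Sp6 (DKO) and 3 are wild-type littermates (WT), and each took about 2 forelimb buds. They name no allele, strain, sex or litter for either group, and both groups received the same trypsin digestion and peeling. The DKO libraries bear the numbers 17, 40 and 41 and the WT libraries 32, 53 and 56.

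Ion channels are membrane proteins that let potassium, sodium, calcium or chloride pass down their gradients, and so set the voltage and the calcium signals of a cell. Voltage-gated channels consist of a large pore subunit with smaller auxiliary subunits that change its gating or its transport to the surface. Two-pore-domain and inward rectifier potassium channels hold the resting potential of cells that fire no action potentials, epithelia among them. Not every protein named for a channel is one: several CLC proteins exchange chloride for protons in endosomes and lysosomes, and some anoctamins are lipid scramblases. Sp8 and Sp6 are zinc finger transcription factors of the SP family, which is known for binding GC-rich boxes near gene starts.

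The libraries held 64432348 to 87040786 counts, with a count for 21716 (WT 53) to 24651 (WT 32) genes. Sp8 was at 5.86, 2.38 and 2.80 counts-per-million units (CPM) in DKO 17, 40 and 41, against 31.3 to 43.2 CPM in WT. Sp6 was at 133, 13.9 and 76.9 CPM in the DKO libraries, against 228 to 320 CPM in WT. For both genes the DKO libraries all lay under the WT libraries, but Sp6 did not pass the threshold (log2 fold change -1.94, edgeR adjusted p = 0.206). All 12 surface ectoderm markers were tested, and their summed level was 2956 to 3231 CPM in WT and 1903 to 2547 CPM in DKO, with 3 called lower and 1 higher. Markers of the ridge summed to 2063 to 2525 CPM in WT and 277 to 476 CPM in DKO, with 9 of 11 called lower and 0 higher. Limb mesenchyme markers summed to 382 to 399 CPM in WT and to 213, 425 and 289 CPM in DKO 17, 40 and 41. Of these 8 markers, 1 was called lower and 0 higher, and the part of such cells in the results was not tested. Fewer cells of a type and less RNA per cell cannot be told apart in such bulk libraries.

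Most ion channel genes were low or silent in these libraries, as were most genes of the table. In WT, 25 of the 171 had a mean of 5 CPM or more, 26 lay between 1 and 5 CPM, 75 were under 1 CPM and 45 had no count. A WT mean of 1 CPM or more was reached by 51 of the 171, against 13891 of all 55401 genes. No count in any of the 6 libraries was found for 29 of the 171, against 25549 of all 55401 genes. Among the 29 were the potassium channel genes Kcna4, Kcnj6 and Kcnk9, the sodium channel genes Scn7a, Scn10a and Scn11a, the retinal calcium channel gene Cacna1f and the heat and capsaicin receptor gene Trpv1. A filter on low counts left 97 of the 171 for testing, and the highest group mean among the 74 not tested was 0.424 CPM.

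Scaled to the summed length of their exons, 10 genes held 69.4% of the summed WT level of all 171. The highest was Kcnk1, which encodes the two-pore-domain potassium channel TWIK1, at 37.6, 35.1 and 36.7 CPM per kb in WT 32, 53 and 56. It was at 36.1, 32.5 and 35.1 CPM per kb in DKO 17, 40 and 41, so that the groups overlapped. Next came Cacnb3, a cytoplasmic beta subunit of voltage-gated calcium channels, at 24.3, 23.8 and 30.5 CPM per kb in WT and 21.7, 20.5 and 31.1 in DKO. The lowest WT library of Kcnk1 lay above the highest of Cacnb3, and the lowest of Cacnb3 above the highest of the gene in the third place. That gene was Clcn7, the lysosomal chloride-proton exchanger, with a WT mean of 7.13 CPM per kb. Clcn4, an endosomal exchanger, followed at 5.19, the lipid scramblase Ano6 at 4.65, the channel kinase Trpm7 at 3.44, Ano10 at 3.44, the sodium channel beta subunit Scn4b at 3.22, the chloride channel Clcn2 at 3.21 and Ano8 at 3.16 CPM per kb. From Clcn4 downwards each gene's WT libraries overlapped those of the next in this order. Scaled to the longest transcript of each gene in place of all exons, 8 of these 10 stayed among the highest 10, and Cacnb3 (38.4) stood above Kcnk1 (36.5 CPM per kb).

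**Figure D1:**
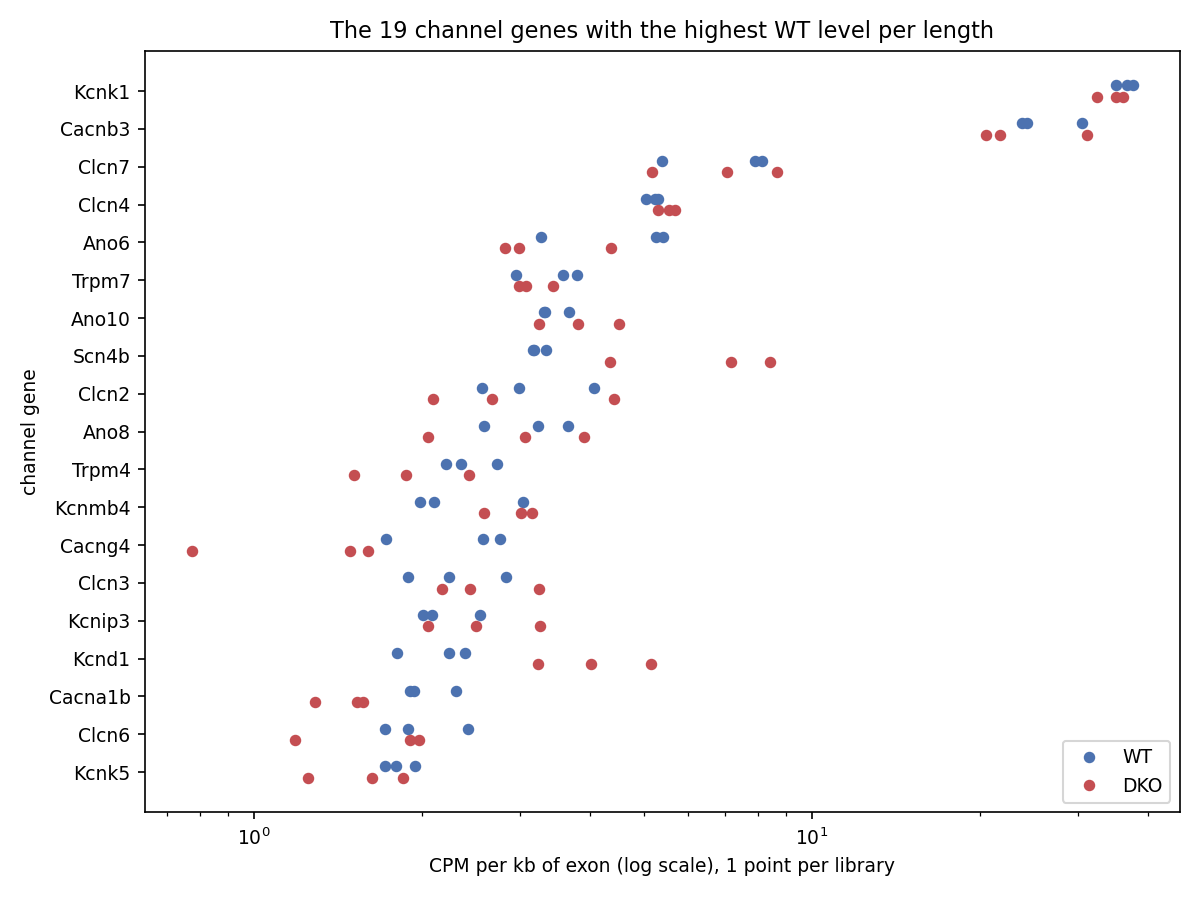
Level of the 19 channel genes with the highest WT mean per kb of exon, 1 point per library (blue WT, red DKO), on a log axis in CPM per kb. Kcnk1 and Cacnb3 stand apart from the rest in both groups, and Scn4b and Kcnd1 have their 3 DKO points to the right of their WT points.

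The plot of levels per length shows how close WT and DKO were for the most abundant channel transcripts. Of the 10, only Scn4b passed the test of DKO against WT, and 8 of the other 9 had a log2 fold change between -0.12 and 0.16. The exception was Ano6, at 64.4, 40.1 and 66.5 CPM in WT and 36.6, 34.6 and 53.6 CPM in DKO. The groups overlapped because WT 53 was lower than DKO 41 (log2 fold change -0.46 ± 0.232 (SE), edgeR adjusted p = 0.349). With any 1 of the 6 libraries left out, Ano6 was not called (edgeR adjusted p = 0.144 to 0.702). Without both WT 53 and DKO 41, the library of each group with the most globin transcripts, Ano6 was called lower (-0.88, edgeR adjusted p = 0.0246). That pair was chosen after the data were seen, and takes out the lowest WT and the highest DKO library of Ano6, so this call cannot stand as support. Clcn4 kept to a narrow range, 44.8, 43.2 and 45.4 CPM in WT and 45.5, 48.8 and 47.6 CPM in DKO. Its groups did not overlap, yet the difference was small beside its error (log2 fold change 0.09 ± 0.121 (SE), edgeR adjusted p = 0.776).

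Of the 97 channel genes tested, 8 were called at an adjusted p under 0.05, which is 8.25%, against 4.51% of all 19126 genes tested. Clcn5, Scn4b and Kcnh2 rose, 3.09% of the 97 against 1.70% of all genes called higher. Kcna1, Kcnj15, Scn3a, Kcnn4 and Cacna1i fell, 5.15% against 2.81% of all genes called lower. At such shares a class of few genes may hold no call, so a class without one is not set apart by it. The groups did not overlap in 29 of the 97 (29.9%; 15 with DKO above WT and 14 below), against 21.9% of all genes tested. An unadjusted p under 0.05 was reached by 30 (30.9%), against 18.0% of all genes tested. Their median log2 fold change was -0.04, the same with Ano3 (0 counts in WT) at its lower bound, beside 0.03 for all genes tested, and 48 were above 0 and 49 below. There was thus no common direction. A log2 fold change of 1 or more in size was seen in 44 (45.4%), against 14.1% of all genes tested. The channel genes were the lower set, with a median level of 1.117 CPM over the 6 libraries against 9.74 CPM for all genes tested, and the part of level in these shares was not tested.

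**Figure D2:**
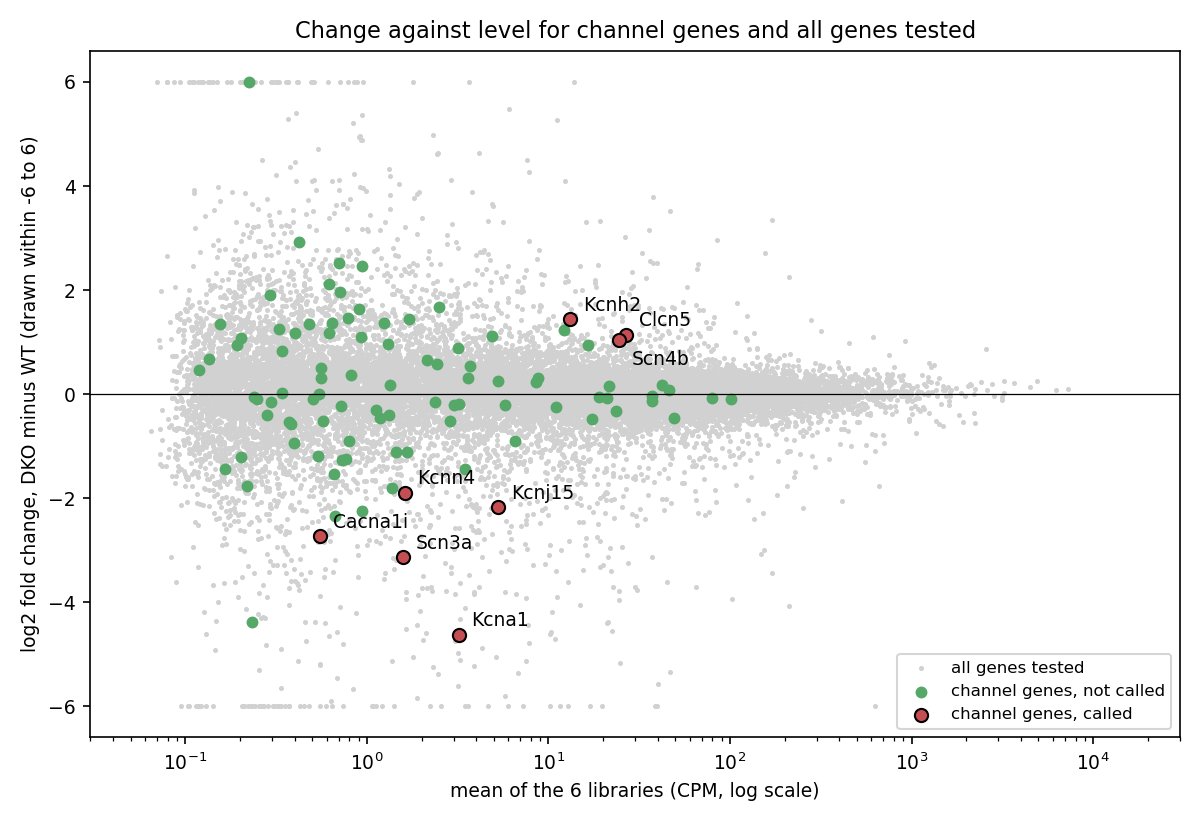
Log2 fold change (DKO minus WT, values beyond the plotted range drawn at its edge) against the mean CPM of the 6 libraries (log axis) for all genes tested (grey), channel genes not called (green) and the 8 called (red, named). The 3 called higher lie above 10 CPM, and the 5 called lower lie under it.

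In the plot of change against level, the genes that rose lie to the right of those that fell, by the mean of all 6 libraries. By WT mean, Clcn5 (16.7 CPM) and Scn4b (16.1 CPM) were above the 5 that fell, at 0.962 to 8.63 CPM. The WT mean of Kcnh2 lay within the range of those 5. In DKO the genes that rose were at 19.2 to 37.0 CPM. For some called genes the 250 bases before a gene start are shown, because SP factors are known to bind the GC box, GGGCGG on either strand. RefSeq windows (GRCm38.p6) were matched for 131 of the 171 genes and 6 of the 8 called, and 3 of these 6 had a GC box in a window. Scn4b, Cacna1i and Kcnj15 had a window without a box, and Kcna1 and Scn3a had no window. The windows of Clcn5, Kcnh2 and Kcnn4 with a box, and that of Kcnj15 with none, read as follows, 5′ to 3′ on the gene's strand, with the boxes in capitals (CCGCCC is the box on the other strand).
Clcn5 (chrX:7319359-7319608, minus strand): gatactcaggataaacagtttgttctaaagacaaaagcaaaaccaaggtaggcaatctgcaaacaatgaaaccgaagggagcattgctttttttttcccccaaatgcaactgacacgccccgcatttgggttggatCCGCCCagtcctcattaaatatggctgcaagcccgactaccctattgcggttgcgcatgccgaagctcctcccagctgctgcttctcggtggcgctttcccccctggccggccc
Kcnh2 (chr5:24329592-24329841, minus strand): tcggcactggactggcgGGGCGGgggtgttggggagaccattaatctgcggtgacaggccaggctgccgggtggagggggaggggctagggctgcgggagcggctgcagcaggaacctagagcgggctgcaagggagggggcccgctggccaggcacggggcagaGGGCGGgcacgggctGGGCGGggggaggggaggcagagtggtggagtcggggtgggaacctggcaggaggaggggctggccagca
Kcnn4 (chr7:24370013-24370262, plus strand): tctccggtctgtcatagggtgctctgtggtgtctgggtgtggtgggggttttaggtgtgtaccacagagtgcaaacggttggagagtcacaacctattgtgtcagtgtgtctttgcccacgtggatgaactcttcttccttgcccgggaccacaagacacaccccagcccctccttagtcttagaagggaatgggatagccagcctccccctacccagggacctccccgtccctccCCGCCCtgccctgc
Kcnj15 (chr16:95257308-95257557, plus strand): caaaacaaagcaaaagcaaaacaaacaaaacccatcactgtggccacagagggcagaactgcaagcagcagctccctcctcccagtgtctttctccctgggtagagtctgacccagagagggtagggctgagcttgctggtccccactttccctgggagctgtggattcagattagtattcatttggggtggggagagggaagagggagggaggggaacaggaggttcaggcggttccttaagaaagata

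The window of Kcnh2 has 3 boxes and those of Clcn5 and Kcnn4 have 1 each. In Clcn5, which rose, 108 bases lie between the box and the start of the gene. In Kcnn4, which fell, 8 bases lie between them. The Kcnh2 window precedes a start that lies inside the gene's GENCODE span, and Clcn5 has a further window (chrX:7188715-7188964) without a box. Over the 178 windows of channel genes, 38.8% had a box, against 32.7% of all 32851 windows in the table. The share was 51.9% of 27 windows for channel genes with a WT mean of 5 CPM or more, 41.3% of 80 from 0.1 to 5 CPM and 31.0% of 71 under 0.1 CPM. For all genes it was 60.6% at 5 CPM or more and 13.3% under 0.1 CPM (the difference was not tested). The median GC content was 62.8% in the windows of channel genes at 5 CPM or more and 54.4% in those under 0.1 CPM. Binding was not measured in these data.

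Clcn5 (ENSMUSG00000004317.14, GRCm38 chromosome X, 7153810 to 7319358) encodes the endosomal chloride-proton exchanger ClC-5, known for its part in protein uptake by the kidney's proximal tubule. It was at 15.9, 16.1 and 18.1 CPM in WT 32, 53 and 56, and at 39.4, 39.3 and 32.3 CPM in DKO 17, 40 and 41. All DKO libraries were well above all WT libraries. The level rose 2.22-fold, from 16.7 ± 1.21 to 37.0 ± 4.06 CPM (SD, n = 3 each), with a log2 fold change of 1.14 ± 0.160 (SE; edgeR adjusted p = 0.00598). Clcn5 was called with each of the 6 libraries left out in turn (edgeR adjusted p = 0.00782 to 0.0492). Because the gene is X-linked, the sex of the libraries bears on it: Xist was at 46.6 CPM in DKO 40 and 32.6 CPM in WT 53 and at 0.710 CPM or less in the other 4 libraries, and 4 Y-linked genes were at 0 in those 2. These libraries, 1 in each group, were at 39.3 and 16.1 CPM of Clcn5, and the part of sex in the difference was not tested. The other 6 CLC genes did not pass the test, and among the 5 of them at 5 CPM or more in WT the log2 fold change ran from -0.26 (Clcn6) to 0.17 (Clcn3).

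**Figure D3:**
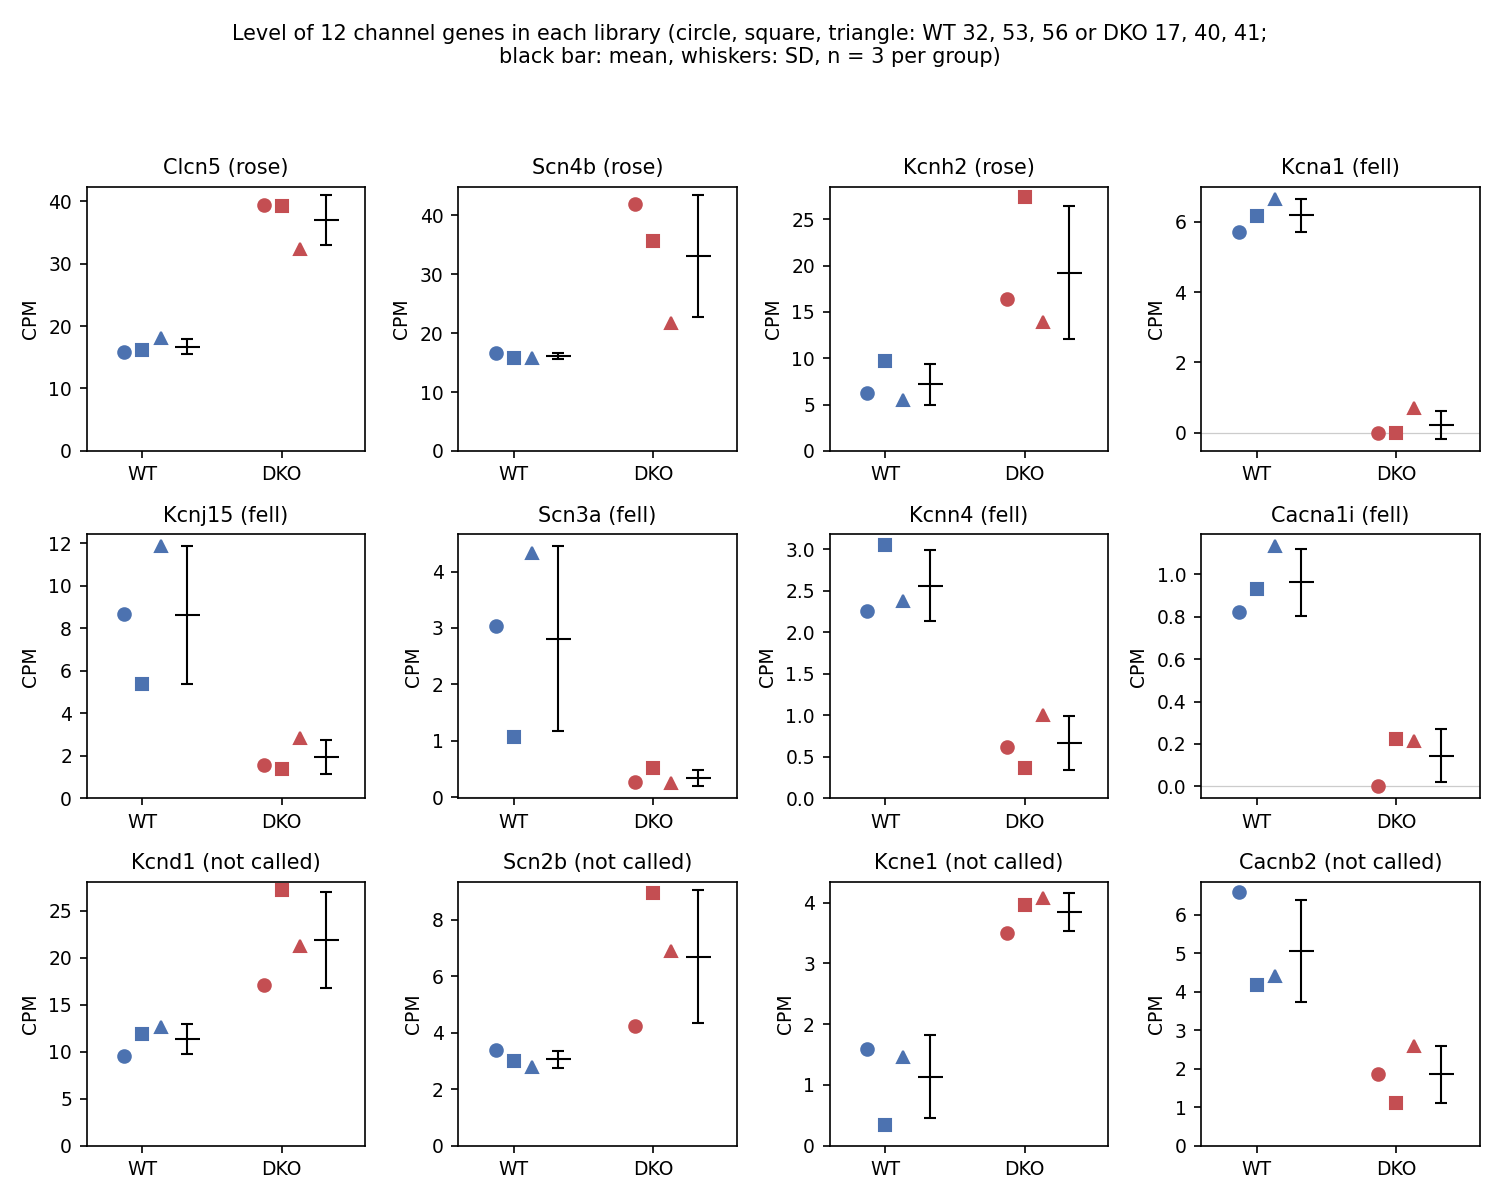
Level in CPM of 12 channel genes in each library (blue WT 32, 53, 56 and red DKO 17, 40, 41 as circle, square and triangle), with the mean and SD of each group (n = 3) in black. The 8 called genes have no overlap between groups, and neither have the 4 not called (Kcnd1, Scn2b, Kcne1 and Cacnb2), whose adjusted p lay above 0.05.

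Among the voltage-gated potassium channels, 40 genes were in the table, 21 were tested, Kcnh2 rose and Kcna1 fell. Kcna1 (ENSMUSG00000047976.4, chromosome 6, 126640397 to 126646384) encodes Kv1.1, a fast-opening channel known from axons. It was at 5.72, 6.16 and 6.65 CPM in WT 32, 53 and 56, with 494, 390 and 581 counts. It had 0 counts in DKO 17 and DKO 40 and 62 counts (0.695 CPM) in DKO 41. The WT libraries agreed closely and the DKO signal came from 1 library alone. The level fell 26.7-fold, from 6.18 ± 0.465 to 0.232 ± 0.401 CPM (log2 fold change -4.63 ± 0.620 (SE), edgeR adjusted p = 0.00408). Without DKO 41 no count was left in DKO, and the level was at least 329-fold lower against a floor of 3 counts over the 2 libraries left. Kcna1 was called with each library left out in turn (edgeR adjusted p = 0.00467 to 0.0255), but not with the other form of the quasi-likelihood fit (legacy=TRUE, edgeR adjusted p = 0.159) or with DESeq2 (adjusted p = 0.273).

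Kcna1 lies in a row of related genes on chromosome 6, between Kcna5 and Kcna6, and neither neighbour fell. Kcna5, a Kv1 channel known from the heart, lies 104984 bases to one side and was at 2.40, 4.34 and 2.51 CPM in WT and 5.27, 3.80 and 3.89 CPM in DKO. Kcna6 lies 61944 bases to the other side and was at 0.452, 0.237 and 0.172 CPM in WT and 1.06, 0.732 and 1.59 CPM in DKO. The groups overlapped for Kcna5 (log2 fold change 0.53, edgeR adjusted p = 0.445) and not for Kcna6 (1.97, edgeR adjusted p = 0.0831), which shares 2355 exon bases with Gm26673. Both neighbours are outside the rule that named the genes, and were added after their values were seen.

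Kcnh2 (ENSMUSG00000038319.14, chromosome 5, 24319589 to 24351604) encodes the hERG channel that repolarizes heart muscle cells. It was at 6.29, 9.74 and 5.54 CPM in WT 32, 53 and 56, and at 16.4, 27.4 and 13.9 CPM in DKO 17, 40 and 41. The groups did not overlap, although DKO 40 was well above the other DKO libraries. The level rose 2.68-fold (log2 fold change 1.44 ± 0.323 (SE), edgeR adjusted p = 0.0401). The call was kept without DKO 41 (edgeR adjusted p = 0.0321) and lost without any other single library (0.0503 to 0.197).

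Kcnd1, which encodes Kv4.1 and had the highest WT mean CPM of the class, was at 9.53, 11.8 and 12.6 CPM in WT and 17.1, 27.2 and 21.2 CPM in DKO. The groups did not overlap and the adjusted p lay just above the threshold (log2 fold change 0.95 ± 0.226 (SE), edgeR adjusted p = 0.0505). Kcnd1 is X-linked as well, and DKO 40, with the Xist signal, was its highest library. Without DKO 17, its lowest DKO library, Kcnd1 was called higher (edgeR adjusted p = 0.0352). DKO 17 was also the DKO library with the most Sp6, at 133 CPM, and the fewest genes with a count, at 22798, and the part of either in these values was not tested.

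Summed per kb over the class, the voltage-gated potassium channels stood at 9.59, 12.3 and 11.1 CPM per kb in WT 32, 53 and 56. The sums were 13.2, 19.7 and 17.1 CPM per kb in DKO 17, 40 and 41, all above WT. Such a sum is led by few genes, such as Kcnd1 and Kcnh2, and over the 21 tested 10 had a log2 fold change above 0 and 11 below. The sum of all 171 channel genes was 138 ± 10.3 CPM per kb in WT and 144 ± 9.79 in DKO (SD, n = 3 each), which differed by less than the spread.

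**Figure D4:**
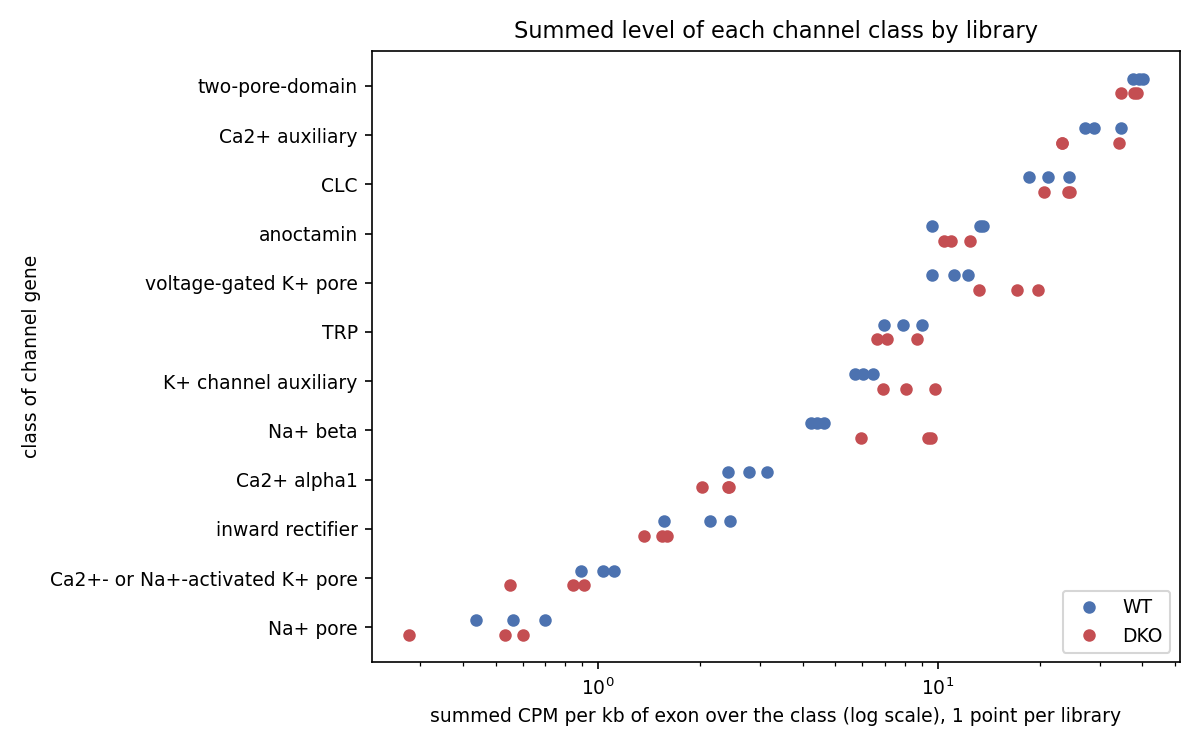
Summed level of each of 12 channel classes in CPM per kb of exon (log axis), 1 point per library, blue WT and red DKO. The DKO points lie to the right of the WT points for the voltage-gated potassium pores, the potassium channel auxiliary subunits and the sodium channel beta subunits.

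The plot of class sums places the two-pore-domain channels first, at 28.1% of the WT sum, followed by the calcium channel auxiliary subunits at 21.8% and the CLC genes at 15.4%. The sums of the sodium channel pores and of the calcium- or sodium-activated potassium channels were the smallest, at 0.409% and 0.730%. Kcnk1 made up most of the first of these sums and Cacnb3 most of the second, and their order turned when scaled to the longest transcript. Class sums were not made with that length, and no class sum was tested.

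The potassium channels of the other classes held 2 of the genes that fell. Kcnj15 (ENSMUSG00000062609.14, chromosome 16, 95257558 to 95300260) encodes the inward rectifier Kir4.2 and was the 1 inward rectifier above 1 CPM in WT. It was at 8.66, 5.37 and 11.9 CPM in WT 32, 53 and 56, and at 1.55, 1.39 and 2.86 CPM in DKO 17, 40 and 41. The groups were apart, with WT 53 the lowest of WT. The level fell 4.47-fold (log2 fold change -2.17 ± 0.398 (SE), edgeR adjusted p = 0.0193), and the call was kept without DKO 41 (edgeR adjusted p = 0.0254) and without WT 53 (0.0163). It was lost without DKO 17 (0.0542), DKO 40 (0.101), WT 32 (0.0751) or WT 56 (0.0852), and 333 of its exon bases overlap those of Gm49643 on the other strand. The other 5 inward rectifiers tested were under 1 CPM in WT, had log2 fold changes above 0 and were not called.

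Kcnn4 (ENSMUSG00000054342.8, chromosome 7, 24370263 to 24386690) encodes the intermediate-conductance calcium-activated channel KCa3.1, known from red cells, lymphocytes and secretory epithelia. It was at 2.26, 3.05 and 2.38 CPM in WT 32, 53 and 56, and at 0.612, 0.366 and 1.01 CPM in DKO 17, 40 and 41. No DKO library reached the WT range, and the level fell 3.87-fold (log2 fold change -1.89 ± 0.418 (SE), edgeR adjusted p = 0.0382). The call was kept without DKO 41 (edgeR adjusted p = 0.0349) and lost without any other single library (0.0896 to 0.1498). Primitive red cell markers, given because red cells carry this channel, summed to 256 CPM in WT 53, 0.116 in WT 32 and 0 in WT 56, and to 21.1, 82.4 and 732 CPM in DKO 17, 40 and 41, with overlap between the groups. The other 4 calcium- or sodium-activated potassium channels tested were not called.

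Kcnk1 led the two-pore-domain channels, and none of the 6 tested in that class was called (all genes tested: 4.51%). Kcnk5, an acid-sensitive background channel known from epithelia, was the other one above 5 CPM, at 5.86 to 6.61 CPM in WT and 4.26 to 6.29 CPM in DKO. Of the potassium channel auxiliary subunits, 10 were tested and none was called (all genes tested: 4.51%). Kcnmb4, a beta subunit of the large-conductance calcium-activated channel, had the highest WT mean CPM, at 6.60, 10.1 and 6.99 CPM, and was at 8.59, 10.46 and 9.996 CPM in DKO. The groups overlapped (log2 fold change 0.32, edgeR adjusted p = 0.553), and 1048 of its exon bases overlap those of its antisense genes.

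Kcne1, the small partner of Kcnq1 in heart and inner ear, came closest to the threshold among these subunits. It was at 1.598, 0.347 and 1.45 CPM in WT and 3.49, 3.96 and 4.08 CPM in DKO. All DKO libraries were above all WT libraries, WT 53 was the lowest, and it was not called (log2 fold change 1.68 ± 0.399 (SE), edgeR adjusted p = 0.0506). Its partner Kcnq1 was under 1 CPM in both groups by mean and was not called.

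Voltage-gated sodium channels were represented mainly by their beta subunits, adhesion proteins of the immunoglobulin type that modulate the pore. Scn4b (ENSMUSG00000046480.6, chromosome 9, 45138395 to 45154152) was at 16.6, 15.8 and 15.7 CPM in WT 32, 53 and 56, and at 42.0, 35.6 and 21.7 CPM in DKO 17, 40 and 41. The WT libraries were nearly equal, and the DKO libraries, all above them, were spread widely. The level rose 2.06-fold (log2 fold change 1.04 ± 0.244 (SE), edgeR adjusted p = 0.0479). The call was kept without DKO 41 (edgeR adjusted p = 0.00787), the lowest DKO library, and lost without any other single library (0.108 to 0.200). With DESeq2 size factors in place of TMM the adjusted p was 0.0505.

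Scn2b lies 8324 bases from Scn4b and encodes another beta subunit. It was at 3.38, 3.0 and 2.78 CPM in WT and 4.25, 8.94 and 6.89 CPM in DKO. DKO 17 was the lowest of DKO and still above WT, and the difference was not called (log2 fold change 1.12 ± 0.333 (SE), edgeR adjusted p = 0.101). Without DKO 17 it was called (edgeR adjusted p = 0.0396). The 2 neighbours differed in the order of the DKO libraries, since DKO 17 was the highest for Scn4b and the lowest for Scn2b.

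Of the 10 pore-forming sodium channel genes, 4 were tested. Scn8a, which encodes Nav1.6, had the highest WT mean CPM, at 4.39, 5.23 and 4.93 CPM in WT and 3.53, 6.09 and 7.49 CPM in DKO. The groups overlapped (log2 fold change 0.25, edgeR adjusted p = 0.753). Scn3a (ENSMUSG00000057182.15, chromosome 2, 65457118 to 65567627), which encodes Nav1.3, the sodium channel of the embryonic nervous system, was at 3.03, 1.07 and 4.33 CPM in WT 32, 53 and 56. It was at 0.264, 0.510 and 0.247 CPM in DKO 17, 40 and 41, below each WT library. The level fell 8.27-fold (log2 fold change -3.14 ± 0.647 (SE), edgeR adjusted p = 0.0285), and the call was kept without WT 53 (edgeR adjusted p = 0.0125) and lost without any other single library (0.0801 to 0.114). Scn2a, which lies 53143 bases away, was at 0.241 to 0.255 CPM in WT and 0.120 to 0.841 CPM in DKO and was not called.

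Kcna1, Scn3a and Cacna1i are best known from neurons, so the neuronal markers are given beside them. The 8 markers summed to 74.8 to 118 CPM in WT and 6.01 to 7.32 CPM in DKO, and nearly all of the WT sum was Tubb3, at 71.2 to 116 CPM in WT and 1.19 to 3.92 CPM in DKO. Among the defining markers, Elavl3 and Neurog1 had no count in any WT library, Neurod1 was at 0.0790 CPM or less and Stmn2 at 0.0343 CPM or less. Elavl4 and Isl1 were at 0.961 to 2.34 CPM in WT and 0.605 to 2.48 CPM in DKO. Of the 4 neuronal markers tested, Tubb3 was called lower and Stmn2 higher. Of the 11 ridge markers, 9 were called lower in DKO as well, with sums of 476, 277 and 306 CPM in DKO 17, 40 and 41. The part of ridge or neuronal cells in these values was not tested.

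Calcium channel pores were at low levels, apart from Cacna1b. That gene encodes the N-type channel and was at 19.3, 22.9 and 18.95 CPM in WT and 15.2, 12.8 and 15.6 CPM in DKO. Every DKO library was below every WT library, and the difference did not pass the test (log2 fold change -0.48 ± 0.178 (SE), edgeR adjusted p = 0.191). Cacna1i (ENSMUSG00000022416.15, chromosome 15, 80287238 to 80398279) encodes the T-type channel Cav3.3 and was at 0.822, 0.932 and 1.13 CPM in WT 32, 53 and 56, with 71, 59 and 99 counts. It had 0, 17 and 19 counts in DKO 17, 40 and 41 (0, 0.222 and 0.213 CPM). The groups were apart at this low level and the gene fell 6.64-fold (log2 fold change -2.73 ± 0.672 (SE), edgeR adjusted p = 0.0453). The call was lost with any 1 library left out (edgeR adjusted p = 0.0896 to 0.186). The other T-type genes were not called, with log2 fold changes of -1.12 for Cacna1g and 1.45 for Cacna1h.

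All 8 calcium channel auxiliary subunits tested had a log2 fold change below 0, against 8967 of all 19126 genes tested. For Cacna2d1, Cacnb1, Cacnb3 and Cacnb4 it was smaller in size than its SE. None of the 8 was called (all genes tested: 4.51%). Cacnb2, a beta subunit known from the heart channel, was at 6.59, 4.17 and 4.42 CPM in WT and 1.87, 1.11 and 2.58 CPM in DKO. The highest DKO value stayed under the lowest WT value, and the log2 fold change of -1.44 ± 0.363 (SE) had an edgeR adjusted p of 0.0623. Its exons overlap those of other genes by 968 bases. Cacnb3, at 97.3, 95.5 and 122 CPM in WT and 86.97, 82.4 and 125 CPM in DKO, overlapped between groups (log2 fold change -0.10, edgeR adjusted p = 0.834). The groups were also apart for Cacng4 (8.41 ± 1.98 CPM in WT, 4.607 ± 1.601 in DKO) and Cacna2d3 (1.12 ± 0.0426 and 0.215 ± 0.210 CPM; SD, n = 3 each).

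None of the 11 TRP genes tested was called (all genes tested: 4.51%). Trpm7, the magnesium- and calcium-permeable channel fused to a kinase, was at 40.4, 33.4 and 42.9 CPM in WT and 34.8, 33.8 and 38.8 CPM in DKO. The groups overlapped, as they did for Trpm4, a calcium-activated cation channel at 23.9 to 29.5 CPM in WT and 16.4 to 26.3 CPM in DKO. The epithelial calcium channel Trpv6 had means of 3.29 CPM (WT) and 3.92 CPM (DKO). At low levels, the groups were apart for Trpm3 (0.225 ± 0.116 CPM in WT, 1.02 ± 0.361 in DKO; SD, n = 3 each), with an edgeR adjusted p of 0.0638.

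Of the anoctamins, 7 of 10 were tested and none was called (all genes tested: 4.51%). The scramblase Ano6 and Ano10 and Ano8, which are described above by length, held most of the class. Ano10 was at 21.7, 19.6 and 19.7 CPM in WT and 19.2, 26.7 and 22.5 CPM in DKO, and Ano8 at 22.1, 17.7 and 25.0 CPM in WT and 26.7, 14.04 and 20.97 CPM in DKO. Both overlapped between groups. Ano3 had no count in WT and 71, 21 and 19 counts in DKO 17, 40 and 41 (0.852, 0.274 and 0.213 CPM). Against WT this is at least 35.3-fold higher, set against a floor of 3 counts over the WT group, and it was not called (edgeR adjusted p = 0.0937). The bound was 19.3-fold without DKO 17, and 22.4-fold or 22.3-fold without WT 32 or WT 56. It was singled out after its values were seen, and 61 of its exon bases overlap those of Muc15.

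Of the CLC genes besides Clcn5, Clcn7 was at 41.8, 28.5 and 43.0 CPM in WT and 45.9, 27.4 and 37.3 CPM in DKO. Clcn2 was at 15.4, 18.0 and 24.5 CPM in WT and 16.1, 12.6 and 26.6 CPM in DKO. The groups overlapped for both, and their log2 fold changes were -0.04 and -0.06 (edgeR adjusted p = 0.950 and 0.943).

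The calls differ in how often they were kept with 1 library left out. Over all genes tested, 247 to 917 were then called, in place of 863. The part of the smaller number of libraries in the lost calls was not tested. Clcn5 and Kcna1 were called with every library left out in turn, Kcnj15 with 2 of the 6 left out, and Scn4b, Kcnh2, Scn3a and Kcnn4 with 1. Cacna1i was called only with all 6 libraries. With legacy=TRUE the calls of Scn4b (edgeR adjusted p = 0.0730), Kcnh2 (0.0727), Kcnn4 (0.0766) and Cacna1i (0.295) were lost, as that of Kcna1 was. Without a filter on low counts Scn4b (edgeR adjusted p = 0.123), Kcnh2 (0.102), Kcnj15 (0.0560), Scn3a (0.0775), Kcnn4 (0.0686) and Cacna1i (0.0908) were lost. So were those of Best3 (edgeR adjusted p = 0.133), P2rx6 (0.0802) and Itpr3 (0.0894), and with legacy=TRUE that of Itpr3 (0.0710). With DESeq2, Kcna1 and Cacna1i (DESeq2 adjusted p = 0.107) were lost, and the other 6 kept their calls. Without both WT 53 and DKO 41, chosen after the data were seen, 3 channel genes were called higher (Clcn5, Kcnh2 and Scn4b) and 4 lower (Ano6, Kcna1, Kcnj15 and Scn3a). That was 6.80% of 103 channel genes tested, against 5.10% of all genes.

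**Figure D5:**
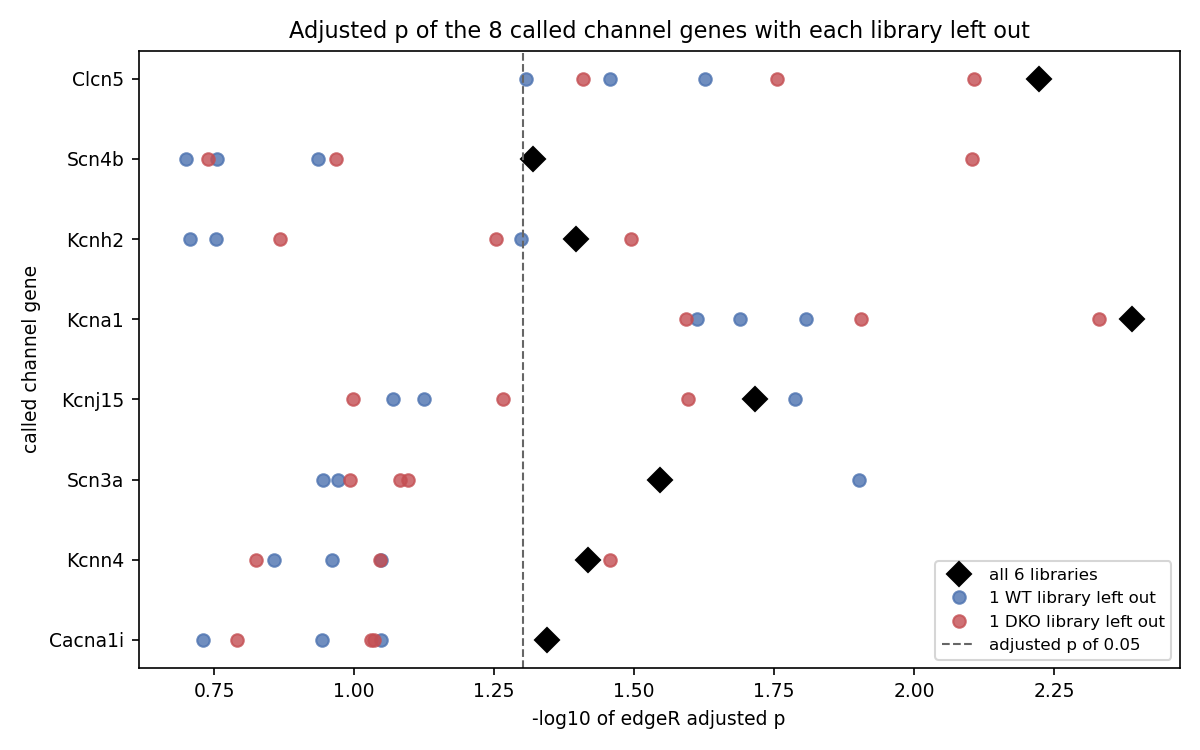
The -log10 of the edgeR adjusted p of the 8 called channel genes with all 6 libraries (black diamond) and with 1 WT (blue) or 1 DKO (red) library left out, the dashed line marking an adjusted p of 0.05. All points of Clcn5 and Kcna1 lie to the right of the line, and for Cacna1i only the diamond does.

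The plot of adjusted p with libraries left out has 1 red point right of the line for Scn4b, Kcnh2, Kcnj15 and Kcnn4, which is the fit without DKO 41. Low genes also depended on which library was read. In WT 53, 78 channel genes had a count, against 110 in WT 56 and 115 in WT 32, and 11 had none there while both other WT libraries were at 0.3 CPM or more. Among these were Ano1, Kcnma1, Trpc1 and Trpa1. In DKO 17, 93 had a count, against 107 in DKO 40 and 115 in DKO 41, and 6 had none while both other DKO libraries were at 0.3 CPM or more.

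A further 102 channel genes outside these names, among them voltage-dependent anion channels, acid-sensing and ATP-gated channels and intracellular calcium channels, were listed beside them. Of these, 66 were tested, 1 was called higher and 3 lower (6.06% called, against 4.51% of all genes). Itpr3, the inositol trisphosphate receptor that releases calcium from the endoplasmic reticulum, was at 25.4, 14.7 and 29.3 CPM in WT and 6.83, 4.10 and 10.46 CPM in DKO. All DKO libraries were below WT 53, the lowest of WT, and the level fell 3.24-fold (log2 fold change -1.70 ± 0.349 (SE), edgeR adjusted p = 0.0293). Clca1, a secreted regulator of chloride channels, was at 9.59, 14.8 and 19.3 CPM in WT with 0 counts in DKO, at least 1210-fold lower (edgeR adjusted p = 0.00267). Without DKO 17, DKO 40 or DKO 41 the bound was 805-fold, 838-fold or 776-fold. The bestrophin gene Best3 was at 0.625, 0.347 and 0.263 CPM in WT with 0 counts in DKO, at least 34.2-fold lower (edgeR adjusted p = 0.0496), or 22.8-fold and 21.9-fold without DKO 17 and DKO 41. The ATP-gated channel gene P2rx6 had 0 counts in WT with 0.564, 0.405 and 0.471 CPM in the 3 DKO libraries, at least 37.9-fold higher (edgeR adjusted p = 0.0313), or 24.1-fold and 23.95-fold without WT 32 and WT 56. Clca1 was called with each library left out in turn, Itpr3 with 2 of the 6 left out, and Best3 and P2rx6 with none of them. The other 62 did not pass the test.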

How the data were processed

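RNA of peeled forelimb ectoderm was sequenced with the SMART-Seq v4 and Nextera XT kits, per the labels' protocols, which mark neither strand nor molecules, so overlapping genes on opposite strands share reads, and floors cover counting error only. The deposited table holds raw read counts, whole numbers, for each gene, with 6 columns used here. The submitters' processing notes name HISAT2, StringTie, Cufflinks, FastQC, fastp and DESeq2 and the builds GRCm38 and mm10; the step that made the counts is not given in the sources used here. The columns are named DKO or WT with a number of their own, which is not a replicate number of the labels. The labels do not say which samples came from which embryo, and p-values cover only the spread among these libraries, which may be technical. The 6 libraries all differed by more than sampling noise (chi-square per degree of freedom 50.2 or more). The 4 samples at E10.5 were not analysed here.

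Genes were tested with edgeR 4.0.16 in R 4.3.3 (filterByExpr, TMM, glmQLFit with robust=TRUE and legacy=FALSE, quasi-likelihood F test, two-sided), with p-values adjusted by Benjamini-Hochberg over 19126 genes. Called means an adjusted p under 0.05. Levels are CPM scaled by TMM. Positions, exon lengths and overlaps came from GENCODE M21 and promoter windows from RefSeq. The standard error (SE) was taken as the absolute log2 fold change over the root of F. Folds against a group with 0 counts use a floor of 3 counts over that group. The script was tested on simulated data with changes set only in well-counted genes, so that test does not speak for the low channel genes. Alternatives were DESeq2 1.42.0, DESeq2 size factors, no filter, legacy=TRUE and left-out libraries.

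The genes described in full are those called, those with a log2 fold change of 1 or more in size and at least 3 CPM by mean in either group, the gene with the highest WT mean of each class, and the 10 with the highest WT level per kb. One gene that this rule names is not reported here. The channel genes, the lists, the rule and the tests were chosen with earlier results of these data known.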

Additional observations from a re-analysis of the deposited data

How the results depend on the processing

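Without a filter on low counts, 1 channel gene was called higher and 1 lower (others: 0 and 1). That was 1.41% of 142 channel genes tested, against 1.38% of all genes tested. With legacy=TRUE the counts were 1 and 2, or 3.09% of 97 tested, against 2.85% of all genes. The DESeq2 Wald test called 11 higher and 8 lower, or 16.1% of 118 tested, against 5.82% of all genes. It called 7 of the other channel genes higher and 3 lower. With each library left out in turn, 1 to 6 channel genes were called higher and 1 to 3 lower, and 0 to 2 and 1 to 2 of the others. In these fits 1.87% to 6.73% of the channel genes tested were called, against 1.23% to 4.61% of all genes. Without both WT 32 and DKO 41, 2 channel genes were called higher (Clcn5 and Scn4b) and 1 lower (Kcna1), and 0 and 1 of the others. That was 3.19% of 94 channel genes tested, against 1.97% of all genes. Without both WT 53 and DKO 41, chosen after the data were seen, 2 of the others were called higher. Over all genes tested, 412 were called without the filter, 546 with legacy=TRUE, 1737 with DESeq2 and 247 to 917 with 1 library left out, in place of 863. No called gene turned direction under any of these, and Clcn5 was called under all of them. The cause of these shifts was not tested. Counts under the floor, 0.0127 CPM in WT and 0.0120 CPM in DKO, limit what can be said of the silent genes. No paired analysis was possible because the libraries' numbers are not the replicate numbers that the labels give.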

Other observations

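Some channel genes of low level and not called differed between the groups without overlap, and were singled out after their values were seen. Kcng2, a silent modifier of other voltage-gated potassium channels, was at 1.23, 2.95 and 2.27 CPM in WT and 0.420, 0.745 and 0.628 CPM in DKO (edgeR adjusted p = 0.0787). Kcnab1, a beta subunit of the Kv1 channels, was at 0.243, 0 and 0.3205 CPM in WT and 0.624, 2.10 and 0.930 CPM in DKO (edgeR adjusted p = 0.105). Kcnj12, an inward rectifier, was at 0.162, 0 and 0.103 CPM in WT and 1.24, 0.784 and 0.258 CPM in DKO (edgeR adjusted p = 0.0790).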
